A study of Mus musculus with 6 samples.

Results

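Ly6a, Ly6c1, Ly6c2 and Ly6e, 4 genes of the Ly6 surface antigen family, were followed among the 11844 genes listed in the RNA sequencing of differentiating C2C12 cells. They were taken by gene name, with the FPKM of all their transcripts summed, and with the contrast described here already known. Their values therefore describe the samples, no p-value of them is given, and nothing is read from whether they were called. All 4 were among the 11602 genes tested, those whose mean level reached 0.5 FPKM (fragments per kilobase of transcript, scaled to the mapped fragments of the library).

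C2C12 is a mouse myoblast line that fuses into myotubes when serum is lowered, and the samples were labelled as mouse myotubes. The 6 libraries came from cells transfected with siRNA, 3 with a negative control siRNA (siNC) and 3 with an siRNA against Cnn3 (siCNN3). Cnn3 encodes calponin 3, an actin-binding protein of smooth muscle and of other cells, and the study asked how its loss acts on muscle cells. Cells of both groups were grown in high glucose medium with fetal bovine serum and moved to medium with horse serum to differentiate. No group was left without transfection, so neither group shows the level of these genes in cells that received no siRNA. The labels do not say that the 3 libraries of a group came from separate cultures, and p-values then measure only the spread between these libraries, which may be technical.

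The knockdown was seen in every siCNN3 library, to an unequal degree. Cnn3 stood at 62.8, 61.4 and 62.8 FPKM in replicates 1, 2 and 3 of siNC, against 19.0, 39.2 and 25.6 FPKM in those of siCNN3 (log2 difference -1.19, not called by limma). Replicate 2 of siCNN3 kept the most Cnn3. Read numbers are not given in the sources used here, so the depth of the libraries is unknown and the values carry no counting error. Of 12 markers of muscle cells, 10 were listed and Myf6 and Pax7 were not. The summed FPKM of the listed markers ran from 156 to 178 in siNC and from 107 to 121 in siCNN3. Des, which encodes the muscle intermediate filament desmin, came to 113, 113 and 125 FPKM under siNC and to 86.5, 84.3 and 103 FPKM under siCNN3. Myog, a transcription factor of muscle differentiation, had 1.23, 3.07 and 2.26 FPKM in the siNC libraries and 0.785, 0.907 and 0.485 FPKM in the siCNN3 libraries. The muscle creatine kinase gene Ckm, chosen after its values were seen, was below 1 FPKM in all libraries. From the same list, the skeletal actin gene Acta1 averaged 28.4 FPKM under siNC against 5.72 FPKM under siCNN3. Tnnt3 (fast troponin T) averaged 9.39 against 2.66 FPKM, and Myh3 (embryonic myosin) 2.41 against 0.302 FPKM. The libraries thus held muscle lineage transcripts, with little of the late myotube marker Ckm but more of Acta1 and Tnnt3. How far the cells had differentiated was not tested.

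Ly6 proteins are small and are held together by disulfide bonds in a three-fingered fold, and most are fixed to the outer face of the plasma membrane by a glycosylphosphatidylinositol (GPI) anchor. Ly6a is stem cell antigen 1 (Sca-1), used to sort blood stem cells and stromal progenitors. Ly6c1 and Ly6c2 encode the Ly-6C antigen of monocytes, some T cells and some endothelium. Ly6e is broadly expressed and is known to act on the entry of viruses. Transcription of several Ly6 genes is induced by interferon, as is known from other cells.

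The 4 genes lie on mouse chromosome 15 and their start sites span 157 kb (GRCm38). Ly6e lies at chr15:74955051-74959905 on the plus strand. Ly6a lies at chr15:74994877-74998031, Ly6c1 at chr15:75044018-75048830 and Ly6c2 at chr15:75108158-75111970, all on the minus strand. The third exon of Ly6a, Ly6c1 and Ly6c2 is printed because it is of 1 length in the 3 genes and shows how closely they are related. It lies at chr15:74996452-74996568 in Ly6a-202, at chr15:75047353-75047469 in Ly6c1-201 and at chr15:75110511-75110627 in Ly6c2-201, and is read here on the minus strand of GRCm38, 5′ to 3′. Capitals mark the positions at which the 3 are not all alike.
Ly6a: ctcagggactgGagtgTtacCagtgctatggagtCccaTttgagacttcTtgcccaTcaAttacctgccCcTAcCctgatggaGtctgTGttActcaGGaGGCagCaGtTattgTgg
Ly6c1: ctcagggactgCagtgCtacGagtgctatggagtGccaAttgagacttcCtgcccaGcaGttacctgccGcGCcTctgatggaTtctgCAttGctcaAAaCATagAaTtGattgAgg
Ly6c2: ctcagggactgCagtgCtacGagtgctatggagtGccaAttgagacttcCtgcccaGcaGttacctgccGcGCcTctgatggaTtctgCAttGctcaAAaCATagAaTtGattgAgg
Ly6a differed from each of the others at 25 of these 117 bases, and Ly6c1 and Ly6c2 differed at 0.

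The coding part of exon 4 of Ly6c1 and Ly6c2 is printed because it is a long stretch in which few bases tell the 2 genes apart. It lies at chr15:75045405-75045610 in Ly6c1-201 and at chr15:75108546-75108751 in Ly6c2-201, again on the minus strand, and capitals mark the differing bases.
Ly6c1: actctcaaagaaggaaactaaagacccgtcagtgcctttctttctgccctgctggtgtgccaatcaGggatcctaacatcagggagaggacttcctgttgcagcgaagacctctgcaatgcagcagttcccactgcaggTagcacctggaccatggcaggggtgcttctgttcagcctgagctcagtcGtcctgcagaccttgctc
Ly6c2: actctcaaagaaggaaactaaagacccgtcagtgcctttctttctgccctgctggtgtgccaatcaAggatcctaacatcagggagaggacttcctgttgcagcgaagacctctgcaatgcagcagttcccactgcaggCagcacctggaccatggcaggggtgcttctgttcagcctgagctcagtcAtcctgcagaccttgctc
Only 3 of these 206 bases differed. Over the whole coding sequence, 384 of 393 bases of Ly6c1 and Ly6c2 were identical (97.7%), with a longest identical run of 188 bases. Ly6a was identical to Ly6c1 at 83.7% and to Ly6c2 at 83.5% of aligned coding bases, and Ly6e was identical to the other 3 at 55.1% to 57.6%. Of the 50-base windows of Ly6c1-201, 292 of 795 also occurred in transcripts of other genes, 252 of them in Ly6c2. Of the windows of Ly6c2-201, 255 of 773 did so, 252 of them in Ly6c1. Most windows of each transcript were thus its own. The share was 91 of 813 for Ly6a-202 and 0 of 1073 for Ly6e-215. How the authors' counting divided reads from shared stretches is not given in the sources used here, so the separate levels of Ly6c1 and Ly6c2 are uncertain, and their sum was followed as well.

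Promoter sequences from RefSeq (GRCm38.p6, 250 bases before and 50 after the start) were matched for 2 of the 4 genes. They are printed because these are the near-identical pair, and show whether the likeness extends upstream. They lie at chr15:75048788-75049087 for Ly6c1 and at chr15:75111922-75112221 for Ly6c2, and are read on the minus strand. Capitals mark runs of at least 12 bases that are identical when the sequences are aligned.
Ly6c1: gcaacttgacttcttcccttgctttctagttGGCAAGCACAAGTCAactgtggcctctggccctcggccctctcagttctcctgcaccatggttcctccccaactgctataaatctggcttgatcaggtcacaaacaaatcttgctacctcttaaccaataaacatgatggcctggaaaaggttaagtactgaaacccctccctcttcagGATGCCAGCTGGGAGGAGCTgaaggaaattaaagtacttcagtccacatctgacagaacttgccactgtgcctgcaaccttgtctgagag
Ly6c2: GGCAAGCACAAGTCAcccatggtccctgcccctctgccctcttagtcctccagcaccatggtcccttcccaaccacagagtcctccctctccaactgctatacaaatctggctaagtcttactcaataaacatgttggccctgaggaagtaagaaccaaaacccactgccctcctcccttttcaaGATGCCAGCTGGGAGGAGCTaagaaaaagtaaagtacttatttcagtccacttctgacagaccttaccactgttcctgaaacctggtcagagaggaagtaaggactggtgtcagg
The promoters were identical at 208 of 266 aligned bases (78.2%), with 68 gap columns and a longest identical run of 20 bases, so they were less alike than the coding sequences. Neither holds AANNGAAA, the core bound by interferon regulatory factors, on either strand. Of 32851 mouse promoters of the same length, 23.9% hold it. The absence says only that these letters are not in these windows.

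Ly6a had the widest spread of the 4 genes. It stood at 213, 398 and 305 FPKM in replicates 1, 2 and 3 of siNC, against 1392, 352 and 892 FPKM in those of siCNN3. Replicates 1 and 3 of siCNN3 lay above all siNC libraries, while replicate 2 of siCNN3 lay below replicate 2 of siNC, so the groups overlapped. The means were 306 ± 92.2 FPKM and 878 ± 520 FPKM (SD, n = 3 libraries), a ratio of means of 2.88. On the log2(FPKM + 1) scale the difference was 1.36 (SE 0.49). It was 0.92 without replicate 1 and 1.91 without replicate 2 of siCNN3. The coefficient of variation was 30.2% in siNC and 59.2% in siCNN3. In bulk libraries such as these, more cells of a kind and more RNA per cell cannot be told apart.

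Ly6c1 was the steadiest of the 4 within siNC. It was at 50.2, 50.3 and 45.1 FPKM with siNC, against 195, 211 and 149 FPKM with siCNN3. The lowest siCNN3 library was well above the highest siNC library. The means were 48.5 ± 2.96 FPKM and 185 ± 32.4 FPKM (SD, n = 3), a ratio of 3.82 and a log2 difference of 1.90 (SE 0.15).

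Ly6c2 was the lowest of the 4 in level and had the largest ratio. It came to 14.8, 24.0 and 19.99 FPKM under siNC and to 87.9, 96.5 and 69.95 FPKM under siCNN3. The groups did not overlap. The means were 19.6 ± 4.63 FPKM and 84.8 ± 13.5 FPKM (SD, n = 3), a ratio of 4.33 and a log2 difference of 2.07 (SE 0.20). Ly6c1 and Ly6c2 summed, which is free of the division of reads between them, had 65.0, 74.3 and 65.1 FPKM in the siNC libraries and 283, 308 and 219 FPKM in the siCNN3 libraries. The sum gave a log2 difference of 1.96, between those of its parts. The ratio of Ly6c1 to Ly6c2 was 3.40, 2.09 and 2.26 in siNC and 2.22, 2.19 and 2.13 in siCNN3. Apart from replicate 1 of siNC, the ratio was near that of the other libraries in both groups.

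Ly6e was about as abundant as Ly6a and its groups lay close together. It was at 266, 428 and 335 FPKM with siNC, against 885, 1315 and 518 FPKM with siCNN3. The groups did not overlap, and the gap ran from replicate 2 of siNC to replicate 3 of siCNN3. The means were 343 ± 81.5 FPKM and 906 ± 399 FPKM (SD, n = 3), a ratio of 2.64 and a log2 difference of 1.33 (SE 0.34).

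**Figure D1:**
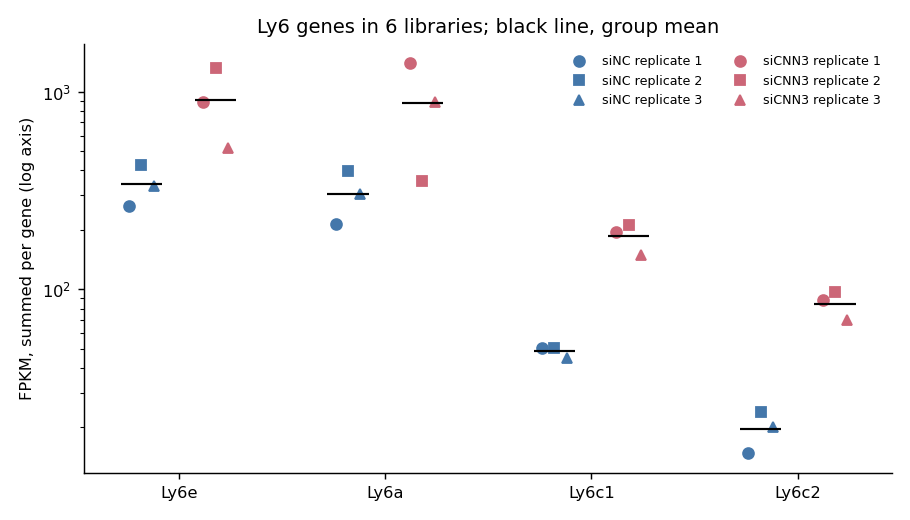
FPKM of Ly6a, Ly6c1, Ly6c2 and Ly6e in each of the 3 siNC and 3 siCNN3 libraries, on a log axis, with 1 point per library and a line at the group mean. The siCNN3 points of Ly6c1, Ly6c2 and Ly6e lie above all siNC points, and replicate 2 of siCNN3 lies among the siNC points for Ly6a.

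In FPKM, which are per length of transcript, levels can be set side by side. Within siNC, Ly6e (343 FPKM) and Ly6a (306 FPKM) had the highest means and their ranges overlapped, followed by Ly6c1 (48.5 FPKM) and Ly6c2 (19.6 FPKM), whose ranges did not. Within siCNN3 the order was the same, and Ly6e and Ly6a again overlapped. The levels of the 4 genes together came to 544, 900 and 705 FPKM under siNC and to 2560, 1975 and 1629 FPKM under siCNN3. That was 0.169%, 0.257% and 0.204% of the FPKM of all genes in siNC and 0.721%, 0.563% and 0.464% in siCNN3. The summed groups did not overlap, and the weight lay with Ly6a and Ly6e.

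In 3 of the 4 genes every siCNN3 library lay above every siNC library, which was so for 13.8% of the genes tested. In the fit across all genes (limma, Benjamini-Hochberg adjusted p under 0.05), 2 of the 4 were called higher, Ly6c1 and Ly6c2, where 1.72% of tested genes were called higher. The genes were chosen on this contrast, so nothing is read from these counts. By log2 difference Ly6c2 ranked at 124 of 11602 genes, Ly6c1 at 138, Ly6a at 230 and Ly6e at 241. The call of Ly6c2 was lost without replicate 3 of siNC and Ly6e was called without replicate 3 of siCNN3, and nothing is read from these calls either.

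The transcripts of Ly6a differed from each other in direction. Of the 6 listed transcripts of Ly6a, 1 was higher in every siCNN3 library, 1 was lower in every one, and 4 overlapped. Ly6a-202, the main transcript, held 81.1%, 86.3% and 86.6% of the gene's FPKM in siNC and 96.7%, 54.3% and 96.6% in siCNN3. In replicate 2 of siCNN3 it stood at 191 FPKM, against 1346 and 862 FPKM in replicates 1 and 3. In that library Ly6a-205 stood at 102 FPKM, against 20.6 and 15.4 FPKM in the other siCNN3 libraries and 13.2 to 31.1 FPKM in siNC. Ly6a-201 stood at 54.7 FPKM there, against 21.7 and 11.1 FPKM. The library with the low Ly6a level thus also had a different division of Ly6a among its transcripts. Ly6a-204 had 5.66, 8.01 and 7.69 FPKM in the siNC libraries and 0.426, 1.23 and 2.54 FPKM in the siCNN3 libraries, against the direction of the gene. Ly6a-201 to Ly6a-205 have coding parts of 402 bases and Ly6a-206 has one of 105 bases.

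Of the 3 listed transcripts of Ly6c2, all 3 were higher in every siCNN3 library, and of the 6 of Ly6c1, 4 were and 2 overlapped. Ly6c1-201 was at 40.1, 39.0 and 39.8 FPKM with siNC, against 138, 161 and 124 FPKM with siCNN3. Ly6c2-201 came to 11.2, 18.2 and 15.0 FPKM under siNC and to 74.3, 84.8 and 60.9 FPKM under siCNN3. In Ly6e, 7 of 13 were higher in every siCNN3 library and 6 overlapped. Ly6e-215, its main transcript, had 217, 331 and 274 FPKM in the siNC libraries and 656, 1126 and 408 FPKM in the siCNN3 libraries, and held between 74.1% and 85.6% of the gene's FPKM. The main transcripts of Ly6c1, Ly6c2 and Ly6e were thus higher in every siCNN3 library, and that of Ly6a lay within the siNC range in replicate 2 of siCNN3. FPKM of transcripts of 1 gene are estimates that share reads.

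**Figure D2:**
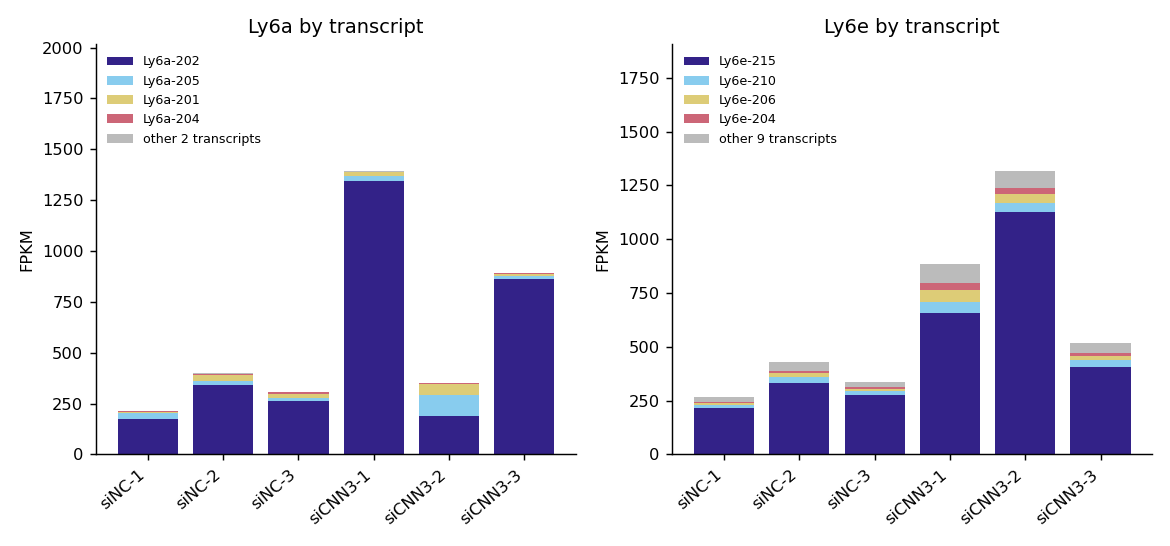
FPKM of the most abundant transcripts of Ly6a (left) and Ly6e (right), with the rest of each gene pooled, stacked, in the 6 libraries. Ly6a-202 is at 191 FPKM in replicate 2 of siCNN3, while Ly6e-215 is the largest part of Ly6e in all 6 libraries.

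The libraries did not differ from their group mean in the same order for all 4 genes. On the log2(FPKM + 1) scale, replicate 2 of siCNN3 lay 0.64 above its group mean for Ly6e and 0.20 above it for Ly6c1 and Ly6c2, but fell by 1.11 below it for Ly6a. Replicate 3 of siCNN3 lay at -0.71 for Ly6e, -0.30 for Ly6c1 and -0.26 for Ly6c2, and at 0.23 for Ly6a. Ly6a was thus out of step with the other 3 genes in siCNN3. Within siNC, replicate 1 was the lowest for Ly6a (-0.47), Ly6c2 (-0.36) and Ly6e (-0.34), and Ly6c1 was nearly level (0.05).

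Irf7, a transcription factor gene that amplifies the interferon signal, is in the list of interferon signalling genes described further on, and was set beside them. In siNC, Irf7 lay at -1.55, 1.29 and 0.27 from its group mean in replicates 1, 2 and 3. Some other genes of that list had other orders of libraries. In siCNN3 its deviations were 0.29, 0.18 and -0.47. These are orders of 3 libraries of a group and carry no test.

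**Figure D3:**
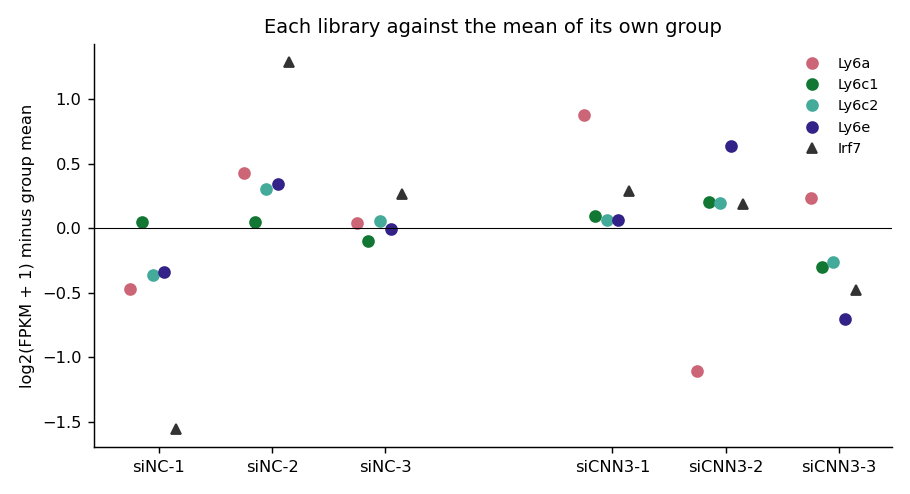
Deviation of each library from the mean of its own group, as log2(FPKM + 1), for Ly6a, Ly6c1, Ly6c2, Ly6e and Irf7. Replicate 2 of siCNN3 lies at -1.11 for Ly6a and at 0.64 for Ly6e.

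The likeness of whole patterns was measured as the root mean square difference of centred log2(FPKM + 1) values over the 6 libraries, where a low value means a like pattern. Ly6c1 and Ly6c2 were the most alike among the 4 (0.225), followed by Ly6c1 and Ly6e (0.427) and by Ly6c2 and Ly6e (0.453). Ly6a was 0.753 from Ly6c2, 0.762 from Ly6c1 and 0.876 from Ly6e. Because all 6 libraries share the 2 groups, any genes that differ between them in 1 direction come out as like, and the values are a description.

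The genes outside the 4 that were most like Ly6a were Nek7 (0.384), Stoml1 (0.397), Kctd3 (0.427), Gm12216 (0.432) and Parp2 (0.504). Nek7, a protein kinase gene, was at 7.96, 8.81 and 8.25 FPKM with siNC, against 27.4, 6.13 and 29.5 FPKM with siCNN3, low in replicate 2 as Ly6a was. In Stoml1, Kctd3, Gm12216 and Parp2, replicate 2 of siCNN3 stayed above every siNC library. Nearest to Ly6c1 were Psme2b (0.0849), Il15 (0.153), Plac8 (0.189), Heatr9 (0.191) and Samhd1 (0.201). Samhd1, which encodes a nucleotide hydrolase, came to 22.9, 23.1 and 23.3 FPKM under siNC and to 77.5, 74.9 and 54.9 FPKM under siCNN3, nearly level in siNC as Ly6c1 was. All these genes were picked as most like over the same libraries, so the shared shapes follow from the choice.

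Nearest to Ly6c2 were H2-D1 (0.0942), H2-T22 (0.103), Ifi202b (0.109), Phf11c (0.123) and Plac8 (0.174). H2-D1, a class I antigen-presenting heavy chain, had 52.5, 75.3 and 68.9 FPKM in the siNC libraries and 281, 278 and 244 FPKM in the siCNN3 libraries. Nearest to Ly6e were Slfn8 (0.177), Setdb2 (0.211), Nars (0.215), Carm1 (0.224) and Dnajc2 (0.225). Nars, the cytosolic asparaginyl-tRNA synthetase, was at 51.5, 75.6 and 71.1 FPKM with siNC, against 203, 206 and 125 FPKM with siCNN3. Ly6a had no gene closer than 0.384, a larger distance than the fifth nearest gene had for each of the other 3.

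Of 44 other genes of the Ly6 and urokinase receptor family, 6 were listed and 5 tested, and none was called in either direction by limma. At an unadjusted p under 0.05 in that fit, 1 was higher and 1 was lower, where 9.94% and 6.14% of all tested genes were. The higher one was Ly6i, which passed the filter only through siCNN3. A test of each gene on its own spread gave 1 at an unadjusted p under 0.05, against 15.5% of all tested genes, and 0 after adjustment. Their median log2 difference was -0.19, where that of all tested genes was 0.03. Ly6i, which lies beside Ly6a, was barely detected, with 0.437, 0.184 and 0.0673 FPKM under siNC and 0.926, 1.07 and 0.521 FPKM under siCNN3. Every siCNN3 library was above every siNC library for Ly6i, with a log2 difference of 0.58 (limma adjusted p = 0.220). Its mean was 0.229 FPKM in siNC and 0.838 FPKM in siCNN3. It thus passed the filter of 0.5 FPKM only through siCNN3, and nothing is read from its direction.

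Cd59a, an inhibitor of the complement membrane attack complex, lay lower in siCNN3. It came to 7.07, 6.19 and 8.78 FPKM under siNC and to 5.72, 1.34 and 2.06 FPKM under siCNN3, below siNC in every siCNN3 library, with a log2 difference of -1.19 (limma adjusted p = 0.194). Lynx1, a modulator of nicotinic acetylcholine receptors, had 17.0, 17.3 and 20.4 FPKM in the siNC libraries and 12.8, 16.2 and 15.9 FPKM in the siCNN3 libraries (log2 difference -0.27, limma adjusted p = 0.413). Plaur, the urokinase receptor, was at 16.1, 10.2 and 9.23 FPKM with siNC, against 12.7, 13.8 and 12.5 FPKM with siCNN3 (log2 difference 0.16, limma adjusted p = 0.749). None of the 3 passed the test.

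Within 500 kb of the 4 genes, 25 other protein-coding genes start, and 5 were listed and tested. None was called by limma, where 1.72% of all tested genes were called higher and 0.336% lower. At an unadjusted p under 0.05, Arc and Ly6i were higher, as were 9.94% of all tested genes, and the lowest adjusted p was 0.12. Ly6i passed the filter only through siCNN3, the group where it is higher, so its direction is not read. The log2 differences were 0.58 for Arc, an immediate early gene of neurons, 0.58 for Ly6i, 0.19 for Jrk, -0.14 for Them6 and -0.27 for Lynx1. The differences of Ly6a, Ly6c1, Ly6c2 and Ly6e, from 1.33 to 2.07, were larger than all of these, and those 4 genes were chosen on this contrast. Ly6i had means of 0.229 FPKM in siNC and 0.838 FPKM in siCNN3. The 1 FPKM added before the log shrinks a change at such levels, so the difference of Ly6i cannot be set against theirs by size.

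**Figure D4:**
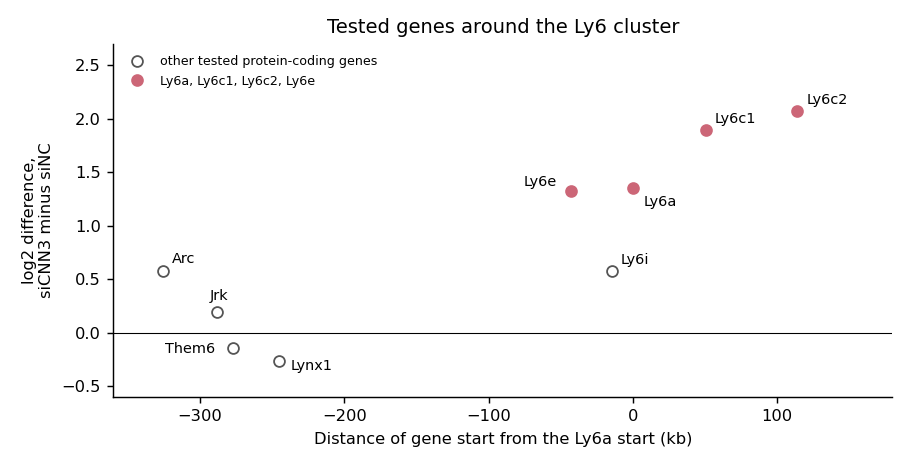
Log2 difference, siCNN3 minus siNC, of the tested protein-coding genes around the Ly6 cluster, against the distance of the gene start from that of Ly6a in kb. The 4 genes lie between 1.33 and 2.07, and the 5 other tested genes between -0.27 and 0.58. Values are of log2(FPKM + 1), which understates the change of low genes such as Ly6i.

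Ly6 proteins reach the surface on a GPI anchor that a chain of enzymes builds and attaches, so those genes were looked at next. Of 31 GPI synthesis genes, 29 were listed and 28 tested, and none was called in either direction by limma. The log2 differences ran from -0.52 to 0.59 with a median of 0.07, and 18 of the 28 were above 0. At an unadjusted p under 0.05, 1 was higher and 0 lower in limma, where 9.94% and 6.14% of all tested genes were. The test of each gene on its own spread gave 2, where it gave 15.5% of all tested genes, and 0 after adjustment.

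Of 69 other genes of GPI-anchored proteins, 32 were tested, 1 was called higher and 1 lower, where 1.72% and 0.336% of all tested genes were. At an unadjusted p under 0.05, 3 were higher and 9 lower in limma, against 9.94% and 6.14% of all tested genes. Some of the 9 passed the filter only through siNC, the group where they are higher. The test of each gene on its own spread gave 11, against 15.5% of all tested genes, and 0 after adjustment. Every siCNN3 library lay above every siNC library for 4 of the 32 and below for 9, against 13.8% and 9.34% of all tested genes. Their median log2 difference was -0.19. Bst2, or tetherin, which holds budding viruses at the membrane, came to 26.4, 129 and 71.7 FPKM under siNC and to 661, 638 and 620.0 FPKM under siCNN3 (log2 difference 3.33, SE 0.51, limma adjusted p = 0.0306). The call was lost without replicate 3 of siNC (adjusted p = 0.126) and without replicates 1 (0.113) or 2 (0.118) of siCNN3, with log2 differences of 3.42, 3.30 and 3.33. The log2 difference was 2.72 without replicate 1 of siNC, and the call was kept. Cd24a, a small mucin-like surface protein, had 6.14, 7.13 and 6.86 FPKM in the siNC libraries and 1.70, 2.13 and 3.50 FPKM in the siCNN3 libraries (log2 difference -1.20, SE 0.22, limma adjusted p = 0.0493). Its call was kept only without replicate 3 of siCNN3 among the libraries left out (adjusted p = 0.00922), and was lost without siNC replicates 1 (0.105), 2 (0.130) or 3 (0.186) and without siCNN3 replicates 1 (0.159) or 2 (0.197).

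Of 18 genes of interferon signalling (ligands, receptors, kinases, transcription factors and the feedback inhibitors Socs1, Socs3 and Usp18), 17 were listed and 16 tested. In limma 1 was called higher and 0 lower, and at an unadjusted p under 0.05, 7 were higher and 0 lower, where 1.72% of all tested genes were called higher and 9.94% were higher at an unadjusted p under 0.05. The test of each gene on its own spread gave 5 at an unadjusted p under 0.05, against 15.5% of all tested genes, and 0 after adjustment. The median log2 difference was 0.24, and 6 of 16 were above siNC in every siCNN3 library, as were 13.8% of all tested genes. Irf7 came to 0.796, 11.8 and 5.33 FPKM under siNC and to 131, 122 and 76.6 FPKM under siCNN3 (log2 difference 4.36, limma adjusted p = 0.0306). Its call was lost without siNC replicate 3 (adjusted p = 0.126) and without siCNN3 replicates 1 (0.116) or 2 (0.122), with log2 differences of 4.49, 4.21 and 4.26. Leaving out replicate 1 of siNC gave a log2 difference of 3.58, leaving out replicate 2 of siNC gave 5.00, and the call was kept in both. Ifnb1, the interferon beta gene, picked on its values, had 0, 0.225 and 0 FPKM in the siNC libraries and 6.60, 7.78 and 1.01 FPKM in the siCNN3 libraries, and was not called. It is among the 7 and the 6 genes counted above. It passed the filter only through siCNN3, the group where it is higher, so its direction is not read.

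**Figure D5:**
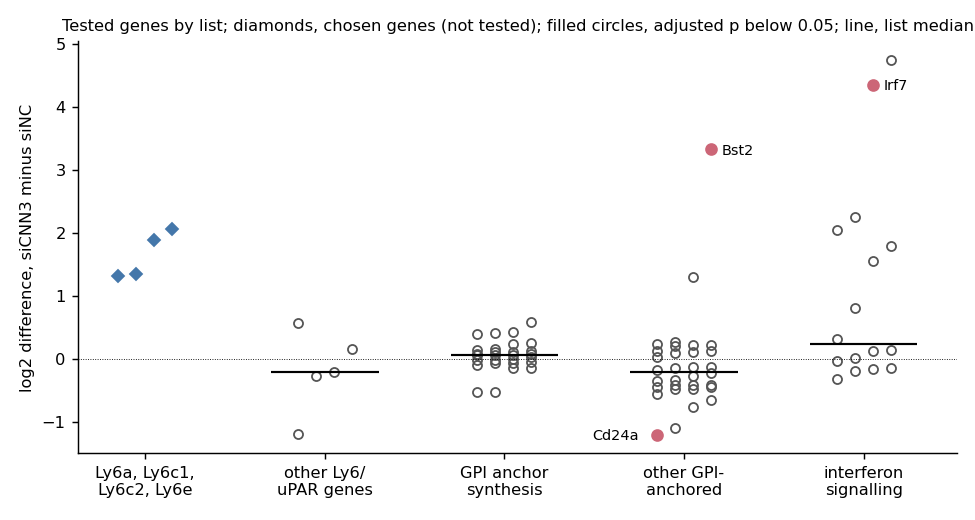
Log2 difference, siCNN3 minus siNC, of the tested genes in 4 lists, with 1 point per gene, filled circles at an adjusted p under 0.05 and a line at the median. The 4 chosen Ly6 genes are shown as diamonds without a test, and Bst2 and Irf7 are the called genes above 0 and Cd24a is the one below.

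Some of these antigens also mark blood and vessel cells, so the markers of other cell types were counted. Of 11 endothelial markers 2 were listed, with Pecam1, Cdh5 and Kdr absent from the list of transcripts, and the listed ones summed to between 1.09 and 1.47 FPKM in siNC and between 1.42 and 1.75 FPKM in siCNN3. Of 14 myeloid markers 2 were listed, and Ptprc, Itgam and Csf1r were not. These summed to between 4.72 and 10.2 FPKM in siNC and between 2.81 and 4.04 FPKM in siCNN3. Of 8 T cell markers 1 was listed, at between 0.280 and 0.580 FPKM in siNC and between 0.183 and 2.33 FPKM in siCNN3. Of 5 markers of blood stem cells 3 were listed, without Kit and Tal1, and they summed to between 54.3 and 62.6 FPKM in siNC and between 49.2 and 64.1 FPKM in siCNN3. The sum was mostly Cd34, with means of 29.2 FPKM in siNC and 28.0 FPKM in siCNN3, and Runx1, with 25.9 and 24.5 FPKM. Gata2 had means of 3.81 and 4.36 FPKM.

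Of 7 fibroblast markers, 5 were listed, and they summed to between 767 and 1080 FPKM in siNC and between 416 and 561 FPKM in siCNN3. Of the 9 muscle markers tested, 3 were called lower (Acta1, Myh3 and Tnnt3, which encode skeletal actin, embryonic myosin and fast troponin T) and 0 higher, where 0.336% of all tested genes were called lower. Myh3 passed the filter only through siNC. At an unadjusted p under 0.05, 7 were lower and 1 higher in limma, against 6.14% and 9.94% of all tested genes. Every siCNN3 library lay below every siNC library for 8 of the 9, against 9.34% of all tested genes. A test of each gene on its own spread gave 7 at an unadjusted p under 0.05, against 15.5% of all tested genes, and 0 after adjustment. Myf5, a myoblast transcription factor gene picked on its values, was at 3.55, 5.64 and 4.84 FPKM with siNC, against 12.95, 11.4 and 5.40 FPKM with siCNN3, with overlapping groups and no call. The summed level of the listed myeloid markers and that of the fibroblast markers lay lower in every siCNN3 library than in every siNC library. The fibroblast sum, with its genes named after their values were seen, was mostly Col3a1, with means of 772 and 410.3 FPKM, and Dcn, with 158 and 68.7 FPKM, while 3 of the 5 listed (Col1a1, Pdgfra and Pdgfrb) overlapped between the groups. The part of these markers in the Ly6 levels was not tested.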

How the data were processed

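mRNA of C2C12 cells was sequenced in 6 libraries, 3 siNC and 3 siCNN3, grouped by their titles. The authors deposited FPKM per Ensembl transcript. Submitters' processing notes name Bowtie 0.12.2 and the builds mm8 and mm10 with no role, and the program that made the FPKM is not given in the sources used here. FPKM are scaled for length and library total, so a gene's level depends on all others.

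Of 24023 transcripts, 23949 were matched without version to GENCODE vM21 (GRCm38), and 74 (0.159% to 0.220% of FPKM) were left out. FPKM were summed per gene. Genes whose mean reached 0.5 FPKM were fitted as log2(FPKM + 1) with limma 3.58.1 in R 4.3.3 (trend, Benjamini-Hochberg adjustment, threshold 0.05), on which p-values across genes rest. A log2(FPKM + 1) difference understates the change of low genes. A gene whose mean is under 0.5 FPKM in 1 group passes the filter only through the other group, which favours that direction. Library FPKM sums ran from 322621 to 355591. An exact permutation test of 3 against 3 cannot go below 0.1. The fit was tested on simulated data. Members and gene lists were chosen with earlier results of these data known. Sequences came from GRCm38 and RefSeq, and alignments from Biopython 1.88. Named genes are the 4 members, Cnn3, tested family genes that were called or reached 5 FPKM, the called genes of the lists (up to 5 each), the 5 most like genes per member, and annotated genes within 500 kb that were called or adjacent. 1 gene of the interferon signalling list is not reported here and was left out of its counts. Any other gene is marked in the text as picked on its values, with some exceptions. These are Arc, Jrk and Them6, the remaining tested genes of the window, and Des, Myog, Acta1, Myh3 and Tnnt3, from the muscle list. They also include Socs1, Socs3 and Usp18, the listed blood stem cell markers, markers named as not listed, and Cyp26a1, named for the filter. Alternatives were a pseudocount of 0.1, no filter or 5 FPKM, median-of-ratios scaling, quantile normalization, a replicate block, no trend, a Student test of each gene on its own spread, the top transcript per gene and each library left out.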

Additional observations from a re-analysis of the deposited data

How the results depend on the processing

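The direction of Ly6a, Ly6c1, Ly6c2 and Ly6e was kept under every alternative run. With each library left out, the log2 difference ran from 0.92 to 1.91 for Ly6a, from 1.79 to 2.04 for Ly6c1, from 1.89 to 2.22 for Ly6c2 and from 1.01 to 1.68 for Ly6e. With the top transcript in place of the gene it was 1.27, 1.80, 2.25 and 1.31. The number of genes called higher ran from 16 (without siNC replicate 3) to 440 (without siCNN3 replicate 3) and that called lower from 4 to 158, against 200 and 39 with all libraries. Without siNC replicates 1, 2 and 3 there were 71, 150 and 16 higher and 28, 20 and 4 lower, and without siCNN3 replicates 1, 2 and 3 there were 39, 28 and 440 higher and 7, 4 and 158 lower. Other GPI-anchored genes called ran from 0 to 2, and those of the other Ly6 family and of GPI synthesis from 0 to 0. Genes called lower numbered 63 with median-of-ratios scaling and 93 with quantile normalization. The share of calls that were higher was 83.7% in the fit used, 68.2% with quantile normalization and 71.7% to 88.2% with a library left out. The Student test called 0 higher and 0 lower after adjustment, against 200 and 39 in limma. At an unadjusted p under 0.05 it gave 1085 and 716, against 1153 and 712 in limma. Other GPI-anchored genes called fell from 2 to 1 with a pseudocount of 0.1, with no filter and with a filter at 5 FPKM, which removes Cd24a. With the pseudocount of 0.1, Irf7 (limma adjusted p = 0.0507) and Cd24a (0.0544) were not called. The cause of the other shifts was not tested.

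Libraries of the same number correlated at -0.276, 0.313 and -0.0231 in their deviations, which cannot tell whether they were made together. Across numbers, replicate 3 of siCNN3 correlated at 0.441 with replicate 1 of siNC and at -0.445 with replicate 2 of siNC. With the replicate number as a block, 62 genes were called higher and 6 lower, 0 of the other GPI-anchored genes were called, and Ly6a, Ly6c1, Ly6c2 and Ly6e had log2 differences of 1.36, 1.90, 2.07 and 1.33. Bst2 (limma adjusted p = 0.056), Irf7 (0.057) and Cd24a (0.104) were not called with the block. Depth is unknown, which limits what can be said of low levels such as that of Ly6i.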

Other observations

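Sca-1 and other Ly6 genes are known to respond to retinoic acid, and a list of that pathway was counted as well. Of 18 genes of retinoic acid synthesis, transport and reception, 12 were tested, 0 were called in either direction by limma, and 3 were higher and 0 lower at an unadjusted p under 0.05, as were 9.94% and 6.14% of all tested genes. Among the 3, Cyp26a1 had means of 0.254 FPKM in siNC and 1.41 FPKM in siCNN3. Cyp26a1 passed the filter only through siCNN3, the group where it is higher, so its direction is not read. A test of each gene on its own spread gave 3 at an unadjusted p under 0.05, against 15.5% of all tested genes, and 0 after adjustment. The median log2 difference was 0.21, against 0.03 for all tested genes, and 4 of the 12 were above siNC in every siCNN3 library, as were 13.8% of all tested genes. The genes named next were chosen after their values were seen. Dhrs3, which returns retinal to retinol, was at 10.2, 11.1 and 12.4 FPKM with siNC, against 19.0, 17.4 and 25.3 FPKM with siCNN3 (log2 difference 0.80, limma adjusted p = 0.0763). Aldh1a1, which makes retinoic acid, came to 3.98, 3.30 and 4.14 FPKM under siNC and to 6.83, 6.19 and 6.29 FPKM under siCNN3 (log2 difference 0.63, limma adjusted p = 0.0857).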
